A study of Mus musculus and Homo sapiens with 8 samples.

Results

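The 10 genes followed belong to the Notch pathway and to secretory fate choice in crypts of the mouse small intestine: the receptor genes Notch1 and Notch2, the ligand genes Dll1, Dll4 and Jag1, the bHLH repressor gene Hes1 and its relative Hes6, and the secretory lineage transcription factor genes Atoh1, Gfi1 and Neurog3. They were taken by symbol, and all 10 were found among the 13359 distinct genes of the deposited expression table. RNA-seq covered 4 libraries from untreated C57BL/6 mice aged 2 months, 2 from mice carrying the Apc Min allele (genotype APCmin+; a truncating Apc allele that activates Wnt signalling and causes intestinal tumours) and 2 from mice that carried Apc Min and were labelled as lacking Zmynd8 in intestinal epithelial cells (genotype APCmin+; Zmynd8IEC-/-). Every animal therefore carried Apc Min, none of the libraries comes from mice without it, and each library pooled RNA of 3 mice, so variation between animals is not seen. The labels name neither the Cre line nor the deleted exons. The other 4 samples of the series, ChIP-seq and input libraries of the human line HCT116, were not used here.

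In the crypt, Notch ligands on one cell activate Notch receptors on its neighbours. The receptor is cut by ADAM proteases and gamma-secretase, and its intracellular part joins RBPJ and Mastermind proteins in the nucleus to switch on repressors such as Hes1. Hes1 represses Atoh1, so cells with active Notch become absorptive, while cells that escape it keep Atoh1, display Delta ligands and enter the goblet, Paneth or enteroendocrine lineages. Dll1 and Dll4 act together as the Notch ligands of the crypt, Notch1 and Notch2 as its receptors.

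The 2 Delta ligand genes had fold changes of opposite sign, neither past the adjusted threshold, and their promoters are shown because the ratio of this pair separates the groups. The sequences are the 250 bases before the outermost RefSeq start site of each gene in GRCm38.p6, for Dll1 chr17:15376933-15377182 on the minus strand and for Dll4 chr2:119325534-119325783 on the plus strand. The Dll4 stretch ends directly before the gene as listed with its FPKM values (from 119325784). The Dll1 stretch does not adjoin the listed gene, whose end is at 15376048, so its start site lies outside the listed span. Capitals mark matches to the E box CANNTG, the letters read by proneural bHLH factors such as Atoh1, and to the N box CACNAG, the letters read by Hes repressors.
Dll1: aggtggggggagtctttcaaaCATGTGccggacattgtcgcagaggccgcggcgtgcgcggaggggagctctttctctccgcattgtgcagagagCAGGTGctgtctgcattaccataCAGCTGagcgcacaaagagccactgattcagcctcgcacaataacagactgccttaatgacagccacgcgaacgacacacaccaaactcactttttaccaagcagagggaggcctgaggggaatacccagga
Dll4: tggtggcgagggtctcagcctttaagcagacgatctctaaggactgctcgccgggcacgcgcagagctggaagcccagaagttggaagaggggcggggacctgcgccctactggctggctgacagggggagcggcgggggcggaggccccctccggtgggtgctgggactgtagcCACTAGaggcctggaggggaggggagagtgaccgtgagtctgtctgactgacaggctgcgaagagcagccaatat

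Both strands were searched for the E box, the N box and the RBPJ core TGGGAA in windows of 300 bases (250 before and 50 after a start site). The printed Dll1 stretch holds 3 E boxes and the Dll4 stretch 1 N box and no E box. The Dll1 count depends on the window, since its other window (chr17:15375774-15376073) holds 1 E box. An N box also lies at position 13 after the start site that the printed Dll1 stretch precedes. Windows were matched for 9 of the 10 genes (12 windows in all), Hes1 being the other. E boxes lay in windows of Dll1, Jag1, Hes6, Gfi1 and Neurog3, N boxes in windows of Notch1, Notch2, Dll1, Dll4, Hes6 and Atoh1, and the RBPJ core in 0 of the 12, with no match of one motif overlapping a match of another. Of all 32851 windows of that length 72.3% held an E box, 42.5% an N box and 25.6% the RBPJ core. These are matches of letters, which say nothing about binding.

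All levels are in FPKM, that is, reads scaled to the length of the gene and the size of the library. The library totals lay between 44718091 and 48778712 reads. Zmynd8 itself measured 6.94 and 4.73 FPKM in control libraries versus 7.30 and 7.65 FPKM in knockout-labelled ones, so the labels could not be checked by the targeted gene, and every direction here rests on them. Epithelial markers were present throughout, with Epcam at 1195 and 1315 FPKM in control libraries against 989 and 976 FPKM, and Krt8 at 2378 and 2727 against 2076 and 1914 FPKM. Of 9 epithelial markers 7 lay lower in all pairings with the knockout label (77.8%, beside 48.5% of all genes tested), around a median log2 fold change of -0.35. The other 2, Krt20 and Vil1, gave 0.12 and 0.40. Vil1, named with its values in view, was higher in all pairings. By limma 0 of the 9 markers passed the threshold. Their sums were 7378 and 8204 against 6769 and 6479 FPKM, and their part in the results was not tested. Markers of blood vessel, stroma, muscle and immune cells were also detected, with 34 of 34 listed genes in the table. In such bulk samples fewer cells of a type and less RNA per cell cannot be told apart. Over the 12948 genes tested the log2 fold change, on the log2(FPKM + 1) scale, had a median of -0.15, and median-ratio scaling moved it by 0.15, so small negative values are the background of this comparison.

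By limma, 0 of the 10 genes passed an adjusted p of 0.05 (0 also by voom), against 0.726% of all genes tested. At an unadjusted p under 0.05 there were 3 (4 by voom): Dll1, higher in the libraries labelled knockout, and Dll4 and Hes6, lower. That share compares with 26.6% of all genes tested. Notch1, Notch2, Dll4, Hes6 and Gfi1 were lower in all 4 pairings of a knockout-labelled with a control library, which also held for 48.5% of all genes tested, and Dll1 alone was higher in all 4, which held for 14.9%. After median-ratio scaling Notch1, Notch2 and Hes6 were still lower in all pairings (28% of all genes) and Dll1 higher (28.2%). The 5 lower genes are therefore close to the background share. The median log2 fold change of the 10 was -0.23.

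**Figure D1:**
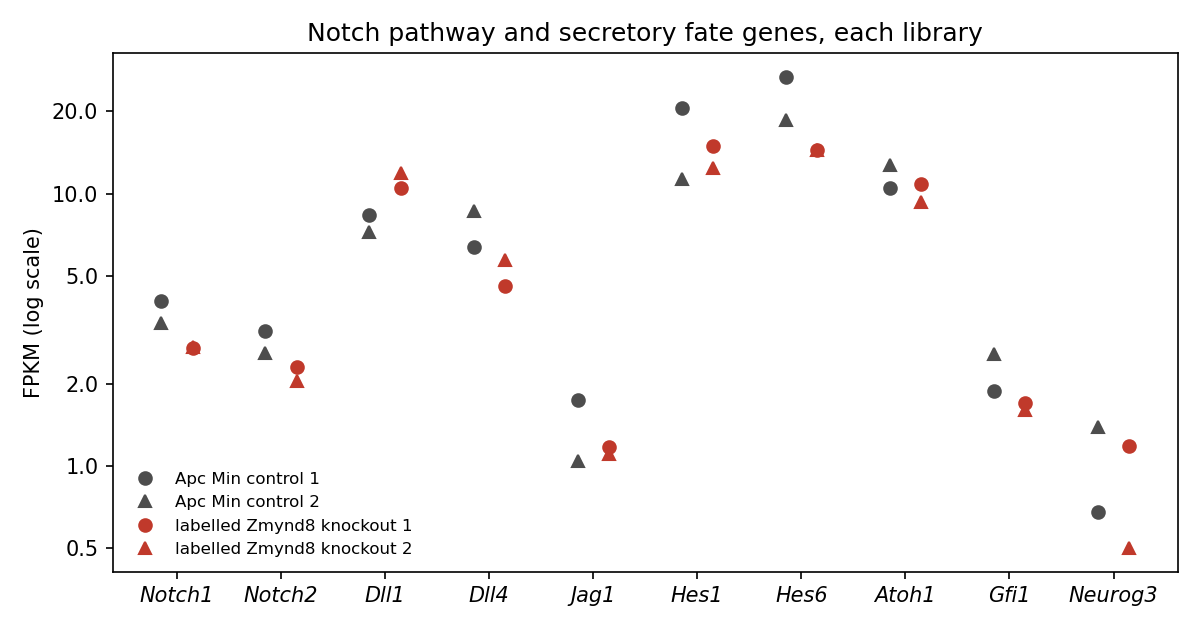
FPKM of each of the 10 genes in each library on a log axis, with grey symbols for the Apc Min controls, red symbols for the libraries labelled knockout, circles for replicate 1 and triangles for replicate 2. For Dll1 both red symbols lie above both grey ones, for Dll4, Hes6, Notch1, Notch2 and Gfi1 they lie below, and for the other 4 genes the groups overlap.

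The receptor genes were expressed at low levels with control values above the others. Notch1 (protein coding, chromosome 2, 26457902 to 26503822, minus strand) measured 4.03 and 3.34 FPKM in control libraries versus 2.72 and 2.73 FPKM in knockout-labelled ones. The groups did not overlap, and the knockout-labelled pools were nearly equal. The log2 fold change was -0.33, with SE 0.14 and a 95% interval of -0.68 to 0.03 (limma adjusted p = 0.205). Notch2 (chromosome 3, 98013538 to 98150367, plus strand) measured 3.13 and 2.60 FPKM in control libraries against 2.32 and 2.05 FPKM, again without overlap, with a log2 fold change of -0.28 (SE 0.15, limma adjusted p = 0.277). After median-ratio scaling the values were -0.19 for Notch1 and -0.15 for Notch2, and after quantile normalization -0.15 and -0.11. Without control replicate 1 they were -0.22 and -0.18. Notch1 exceeded Notch2 in all 4 libraries. Notch4, a receptor known mainly from blood vessels, measured 2.21 and 1.32 FPKM in control libraries versus 1.59 and 1.66 FPKM in knockout-labelled ones, so its values overlapped. Notch3 was not analysed here. Notch1 shares 1489 bases with the long noncoding gene 0610009E02Rik on the opposite strand and Notch2 holds Gm40103 on the opposite strand. The sources do not state whether counting used strand, so reads of these pairs cannot be told apart.

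Among the ligand genes, Dll1 was the 1 member with a positive log2 fold change. Dll1 (chromosome 17, 15367354 to 15376048, minus strand) measured 8.32 and 7.25 FPKM in control libraries versus 10.5 and 11.9 FPKM in knockout-labelled ones. Both knockout-labelled values lay above both controls. Counting error was smaller than this gap: the 95% Poisson interval of the higher control reached 8.77 FPKM and that of the lower knockout-labelled library began at 10.04 FPKM. The group means were 7.78 ± 0.760 and 11.2 ± 0.952 FPKM (SD, n = 2 each), a ratio of 1.44, and the log2 fold change was 0.47, with SE 0.12 and a 95% interval of 0.17 to 0.78 (limma adjusted p = 0.117). After median-ratio scaling it was 0.63 (limma adjusted p = 0.0886).

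Dll4 (chromosome 2, 119325784 to 119335666, plus strand) measured 6.39 and 8.63 FPKM in control libraries versus 4.57 and 5.71 FPKM in knockout-labelled ones. The groups did not overlap, though the gap between 6.39 and 5.71 FPKM was narrower than the distance between the controls. The means were 7.51 ± 1.58 and 5.14 ± 0.808 FPKM (SD, n = 2 each), and the log2 fold change was -0.46, with SE 0.18 and a 95% interval of -0.92 to -0.0039 (limma adjusted p = 0.186). After median-ratio scaling its groups overlapped and the value was -0.31. It was -0.27 without control replicate 2 and -0.65 without control replicate 1. Gm14207 is a noncoding gene on the opposite strand that shares 414 bases with Dll4. It was picked with its values in view, and it measured 2.83 and 4.96 FPKM in control libraries versus 2.63 and 2.53 FPKM in knockout-labelled ones. Its part in the Dll4 values was not tested.

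The ratio of Dll1 to Dll4 within a library does not depend on a scaling factor shared by the genes of a library. It was 1.30 and 0.840 in control libraries versus 2.30 and 2.08 in knockout-labelled ones. Dll4 was thus the more abundant of the pair in control replicate 2 alone, and both knockout-labelled ratios lay above both controls. On the log2 scale the means were 0.07 ± 0.447 and 1.13 ± 0.105 (SD, n = 2 each), a difference of 1.06, or 2.09-fold. An exact two-sided permutation test over the 4 libraries gave p = 0.333, the smallest value this design allows.

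**Figure D2:**
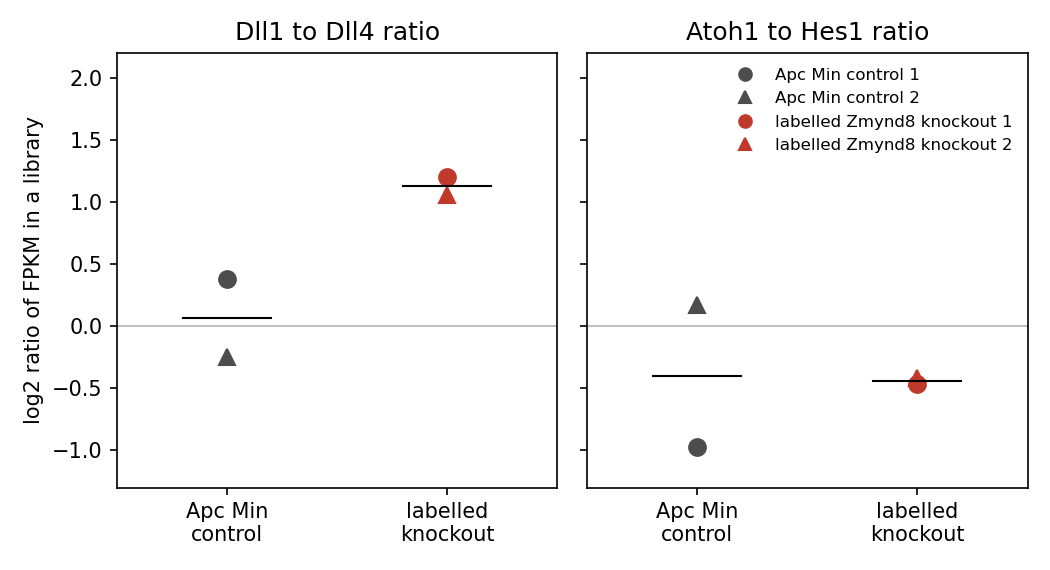
Log2 ratio of FPKM in each library for Dll1 over Dll4 (left) and Atoh1 over Hes1 (right), with circles for replicate 1, triangles for replicate 2 and black bars for the group means. The Dll1 to Dll4 ratio is higher in both libraries labelled knockout, while the Atoh1 to Hes1 ratios of those libraries lie between the 2 controls.

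Of the 4 ligand genes analysed, the Jagged genes were the least abundant. Jag1 (chromosome 2, 137081451 to 137116520, minus strand) measured 1.74 and 1.04 FPKM in control libraries versus 1.18 and 1.11 FPKM in knockout-labelled ones, so the groups overlapped. Its log2 fold change was -0.14 (SE 0.19, limma adjusted p = 0.64), and without control replicate 1 it was 0.069. Jag2 measured 1.72 and 1.30 FPKM in control libraries versus 0.755 and 0.808 FPKM in knockout-labelled ones (log2 fold change -0.49, limma adjusted p = 0.14), without overlap. A gene is in the table only with a mean of at least 1 FPKM in a group, and the knockout-labelled mean of Jag2 was 0.782 FPKM. Jag2 is thus listed through the controls alone and could only be lower, so its direction is no separate result. Dll3 was not analysed here.

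Hes1, the main effector of Notch signalling in the crypt (chromosome 16, 30065357 to 30067796, plus strand), measured 20.6 and 11.3 FPKM in control libraries versus 15.0 and 12.4 FPKM in knockout-labelled ones. The controls held both the highest and the lowest value. The log2 fold change was -0.15 with a wide 95% interval of -1.01 to 0.71 (SE 0.31, limma adjusted p = 0.77). After median-ratio scaling it was 0.011, and without control replicate 1 it was 0.25, so no direction can be given for Hes1. Control replicate 1 also held the highest levels of Sox9, an epithelial transcription factor gene of crypt base and Paneth cells, at 20.1 FPKM against 3.95 to 5.07 FPKM in the other 3 libraries, of Sox4 at 16.0 against 3.56 to 3.77 FPKM, and of the stem cell gene Lgr5, named with its values in view, at 14.8 against 2.74 to 3.48 FPKM. Stem cell genes differed in this, and those that follow were also named with their values in view. In control replicates 1 and 2 Tnfrsf19 stood at 6.87 and 1.71 FPKM, but Axin2 at 20.6 and 20.3 FPKM and Olfm4 at 133 and 166 FPKM. The part of these genes in the Hes1 value was not tested.

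Hes6, which encodes a bHLH protein known to antagonise Hes1, had the largest negative fold change of the 10 genes. It lies on chromosome 1, 91411482 to 91413877, minus strand. Its level was 26.8 and 18.7 FPKM in control libraries and 14.5 FPKM in each knockout-labelled one. Both controls lay above both others, but the controls differed by more than the gap between 18.7 and 14.5 FPKM. The means were 22.8 ± 5.77 and 14.5 ± 0.00516 FPKM (SD, n = 2 each), and the log2 fold change was -0.60, with SE 0.18 and a 95% interval of -1.07 to -0.13 (limma adjusted p = 0.142). Without control replicate 1 the value was -0.35 and without control replicate 2 it was -0.85, so the size rests on which control is kept. Of the other Hes and Hey genes, Hes2 measured 6.27 and 8.69 FPKM in control libraries versus 8.59 and 9.05 FPKM in knockout-labelled ones, with overlap, and Hey1 stood between 0.595 and 1.54 FPKM and was not tested.

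Nrarp and Olfm4 are further genes that Notch can drive. Nrarp, a feedback inhibitor of the pathway, measured 3.72 and 5.17 FPKM in control libraries versus 4.03 and 2.71 FPKM in knockout-labelled ones, with overlap. Olfm4, a stem cell gene that depends on Notch in the crypt, measured 133 and 166 FPKM in control libraries versus 98.3 and 109 FPKM in knockout-labelled ones, without overlap (log2 fold change -0.52, SE 0.15, limma adjusted p = 0.13). Among Hes1, Nrarp and Olfm4, the 3 target genes tested, 1 was thus lower in all 4 pairings (33.3%, beside 48.5% over all genes).

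Atoh1, the factor required for every secretory lineage named above (chromosome 6, 64729146 to 64731243, plus strand), measured 10.5 and 12.7 FPKM in control libraries versus 10.9 and 9.31 FPKM in knockout-labelled ones. The groups overlapped, and the log2 fold change was -0.19, with SE 0.14 and a 95% interval of -0.54 to 0.17 (limma adjusted p = 0.415). After median-ratio scaling it was -0.02, and it ran from -0.31 without control replicate 1 to -0.056 without control replicate 2. The Atoh1 to Hes1 ratio was 0.510 and 1.13 in control libraries versus 0.725 and 0.749 in knockout-labelled ones. The difference on the log2 scale was -0.04 (exact permutation p = 1, two-sided, smallest possible 0.333), and it was 0.53 without control replicate 2 and -0.61 without control replicate 1, so the balance of Atoh1 and Hes1 showed no direction that both controls share.

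Gfi1, a zinc finger repressor gene that acts after Atoh1 and favours goblet and Paneth over endocrine cells (chromosome 5, 107716655 to 107726031, minus strand), measured 1.89 and 2.58 FPKM in control libraries versus 1.71 and 1.60 FPKM in knockout-labelled ones. The groups did not overlap, by a margin that the 95% Poisson intervals of the nearest libraries (from 1.69 FPKM in the control and up to 1.92 FPKM in the other) exceed. The log2 fold change was -0.27 (SE 0.16, limma adjusted p = 0.32), and after median-ratio scaling the groups overlapped, at -0.16. The value was -0.12 without control replicate 2 and -0.43 without control replicate 1.

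Neurog3, the switch gene of the enteroendocrine lineage (chromosome 10, 62133090 to 62134763, plus strand), had the lowest mean of the 10 genes, though Jag1 was below it in 2 libraries. It measured 0.682 and 1.40 FPKM in control libraries versus 1.19 and 0.501 FPKM in knockout-labelled ones, on 47, 105, 85 and 37 reads. Each group held 1 high and 1 low pool, and the 95% Poisson intervals of the pools of a group did not overlap (0.501 to 0.908 and 1.14 to 1.69 FPKM in the controls). Its log2 fold change of -0.15 (SE 0.27, limma adjusted p = 0.742) became 0.12 without replicate 2 of the libraries labelled knockout. Its target Neurod1 measured 0.915 and 1.32 FPKM in control libraries versus 1.42 and 1.10 FPKM in knockout-labelled ones, with overlap.

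**Figure D3:**
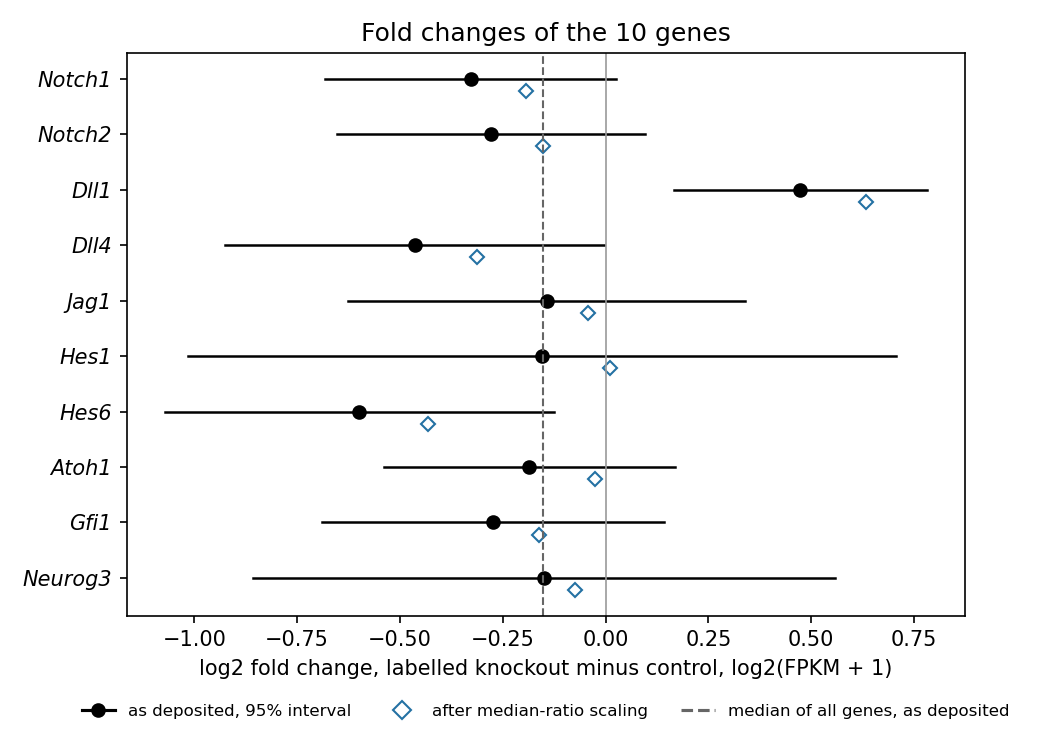
Log2 fold change of each of the 10 genes, libraries labelled knockout minus controls on the log2(FPKM + 1) scale, with black points and 95% intervals for the values as deposited, open diamonds after median-ratio scaling and a dashed line at the median of all genes tested (-0.15). Only the intervals of Dll1, Hes6 and Dll4 lie to one side of 0, and each diamond sits to the right of its point.

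Ordered by the mean level over the 4 libraries, which FPKM gives per gene length, Hes6 (18.6 FPKM) stood first, then Hes1 (14.8), Atoh1 (10.9), Dll1 (9.49), Dll4 (6.32), Notch1 (3.21), Notch2 (2.52), Gfi1 (1.94), Jag1 (1.27) and Neurog3 (0.942). Ranges of neighbours in this order overlapped except between Dll4 and Notch1, where the lowest Dll4 value of 4.57 FPKM exceeded the highest Notch1 value of 4.03 FPKM. In this RNA the ligand genes Dll1 and Dll4 were thus above the receptor genes in each library.

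The listed pathway genes had the same median as all genes. Of 58 listed pathway genes 50 were in the table and 48 were tested. The list holds 6 of the 10 genes, all but Hes6, Atoh1, Gfi1 and Neurog3. By limma 0 passed an adjusted p of 0.05 (0 by voom), with 1 higher and 8 lower at an unadjusted p under 0.05. Among all 12948 genes tested 970 were higher and 2477 lower at that unadjusted p. The median log2 fold change was -0.15, the same as over all genes tested, and 38 were negative and 10 positive. A lower value in each of the 4 pairings was found for 45.8% of the 48, beside 48.5% of all genes. After median-ratio scaling 27 were negative and 21 positive.

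Over all genes tested 71.7% had negative fold changes (50.9% after median-ratio scaling) and 48.5% lay lower in each pairing, and the counts by role are to be read against these shares. The genes for sugar transfer onto Notch were all 5 negative (4 with median-ratio scaling, 3 with quantile normalization), with Poglut1 at 5.65 and 3.85 FPKM in the controls and 3.03 and 3.27 FPKM in the libraries labelled knockout. Lfng, a fringe gene that tunes the receptor's response to its ligands, measured 5.31 and 3.02 FPKM in control libraries versus 3.16 and 2.74 FPKM in knockout-labelled ones, with overlap. Of the 9 cleavage genes tested 7 were negative (6 after median-ratio scaling) and 6 lower in all pairings (66.7%), around a median of -0.19. Ncstn, a gamma-secretase subunit gene, measured 70.6 and 66.3 FPKM in control libraries versus 58.1 and 55.2 FPKM in knockout-labelled ones (log2 fold change -0.27, limma adjusted p = 0.17), while Psenen, another subunit gene, stood at 50.9 and 52.3 against 51.9 and 54.9 FPKM. Psen2 gave -0.36 and Adam10, the protease gene of the first cut, -0.36, the latter with 56.9 FPKM in control replicate 1 against 35.0 to 38.5 FPKM in the other 3 libraries.

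The 12 uptake and turnover genes tested had a median of -0.07 with 3 lower in all pairings (25%, beside 48.5% over all genes). Dtx3l, a ubiquitin ligase gene, gave the second most negative value among them at -0.36 and Neurl1a, a ligand-directed ubiquitin ligase gene, the most negative at -0.40. Mib1, which encodes the ligase that ligands need to signal, measured 10.2 and 8.14 FPKM in control libraries versus 7.92 and 7.43 FPKM in knockout-labelled ones. Numb, an inhibitor of Notch, stood between 26.4 and 29.2 FPKM in all 4 libraries. The 12 nuclear genes tested had a median of -0.12 with 5 lower in all pairings (41.7%). Rbpj, the DNA-binding partner of the cut receptor, measured 4.76 and 3.96 FPKM in control libraries versus 4.01 and 3.93 FPKM in knockout-labelled ones, with overlap.

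**Figure D4:**
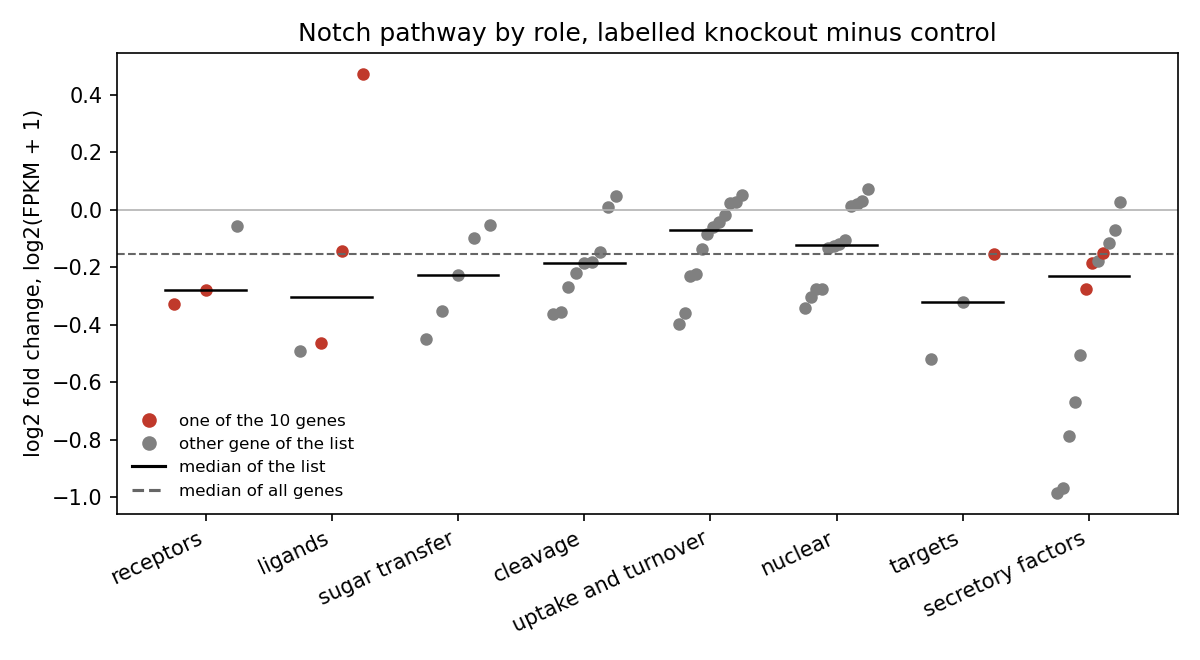
Log2 fold change of the tested genes of each Notch pathway role and of the secretory transcription factor list. Red points mark those of the 10 genes that are on these lists, and Hes6 is on none of them and not shown. Grey points mark other list genes, black bars list medians and a dashed line the median of all genes. Most points lie between -0.5 and 0.1, Dll1 stands alone above at 0.47, and 5 secretory factor genes lie at or below -0.5.

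Spdef, Sox9, Foxa1, Creb3l1 and Creb3l4 had the lowest fold changes among the secretory transcription factor genes. Of 14 listed genes 12 were tested, 11 had negative values and 6 lay lower in each pairing (50%, beside 48.5% over all genes tested). By limma 0 passed the adjusted threshold and 4 were lower at an unadjusted p under 0.05, beside 2477 of the 12948 genes tested. Spdef, a goblet and Paneth maturation factor gene below Atoh1, measured 9.12 and 7.89 FPKM in control libraries versus 6.17 and 5.24 FPKM in knockout-labelled ones (log2 fold change -0.50, SE 0.13, limma adjusted p = 0.12). Creb3l1 stood at 18.4 and 13.5 against 10.1 and 8.97 FPKM (-0.67) and Creb3l4 at 10.7 and 6.96 against 4.83 and 4.33 FPKM (-0.79), both genes of secretory-cell transcription factors. Foxa1 stood at 18.3 and 10.9 against 8.16 and 5.56 FPKM (-0.97, limma adjusted p = 0.16). These 4 genes did not overlap between groups. Klf4 and Xbp1, in contrast, gave 0.03 and -0.11. Of the 11 endocrine factor genes listed 3 were tested, Neurog3, Neurod1 and Sox4, and the other 8 were not analysed here.

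Markers of the mature lineages are given beside these values, and their part in them was not tested. Beside the counts of pairings, 48.5% of all genes were lower in each pairing and 14.9% higher. Of the 7 Paneth cell genes all were negative, with a median of -1.17, and Mmp7 and Itln1 fell past the limma threshold (adjusted p = 0.0417 and 0.045). These calls, and that of Sh2d6 among the tuft cell genes, are lost without a filter, at a mean of at least 5 FPKM, without trend and robust moderation, with the replicate block and without either library labelled knockout, where limma called 0 genes lower. The summed level of the Paneth cell genes was 9064 and 10932 FPKM in control libraries versus 4759 and 6930 FPKM in knockout-labelled ones. The 7 tuft cell genes in the table were all lower in all pairings, with a median of -1.08 and a summed level of 45.2 and 32.5 against 15.9 and 11.6 FPKM, and Sh2d6 fell past the limma threshold (adjusted p = 0.0439). A gene is in the table only with a mean of at least 1 FPKM in a group. Sh2d6, Avil and Dclk1, the last named with its values in view, had knockout-labelled means of 0.346, 0.667 and 0.226 FPKM. These genes are listed through the controls alone and could only be lower, so their direction is no separate result. Of 8 goblet cell genes 7 were negative around a median of -0.49, with sums of 7469 and 8914 against 7118 and 6353 FPKM. Zg16 stood at 2124 and 2769 against 1951 and 1715 FPKM, without overlap. Tff3 stood at 1707 and 2040 against 1917 and 1647 FPKM (-0.07), with overlap. Fcgbp, the 1 positive gene, stood at 1011 and 1306 against 1210 and 1207 FPKM (0.07), also with overlap. The 12 enteroendocrine genes tested had 5 positive and 7 negative values around -0.05 and sums of 175 and 270.01 against 206 and 188 FPKM. Chga stood at 18.1 and 26.6 against 24.1 and 27.2 FPKM and Sct at 23.8 and 51.3 against 42.1 and 39.5 FPKM, both with overlap. Nts, in contrast, stood at 35.7 and 62.3 against 32.0 and 21.4 FPKM, without overlap. All 10 enterocyte genes were higher in all pairings, with a median of 0.86 and sums of 13501 and 15418 against 21725 and 25371 FPKM, and all 11 cell cycle genes lower in all pairings, with a median of -0.56 and sums of 271 and 243 against 180 and 180.1 FPKM. None of the goblet, enteroendocrine, enterocyte or cell cycle genes passed the limma threshold over all genes.

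Endothelial cells also use Notch1, Notch4, Dll4 and Jag1. All 13 endothelial markers were in the table, which lists only genes with a mean of at least 1 FPKM in a group. Summed, the 13 markers gave 74.0 and 56.8 FPKM in control libraries versus 65.0 and 79.6 FPKM in knockout-labelled ones, with overlap. Of the 13, 10 had positive values. The other 3, Cdh5, Tie1 and Egfl7, named with their values in view, gave -0.12, -0.19 and -0.16. Among the 10, Cldn5 and Erg, also named with their values in view, had control means of 0.918 and 0.799 FPKM. Both are listed through the knockout-labelled group alone and could only be higher. The part of endothelial cells in the Dll4 values was not tested. The 10 stromal and muscle markers summed to 326 and 439 FPKM against 331 and 290 FPKM, and all 10 had negative values (8 after median-ratio scaling). Their median was -0.26, with 1 lower in all pairings. The 11 immune markers summed to 531 and 543 against 586 and 424 FPKM, with 10 negative values (5 after median-ratio scaling). Over all genes tested 71.7% were negative, and 50.9% after that scaling.

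**Figure D5:**
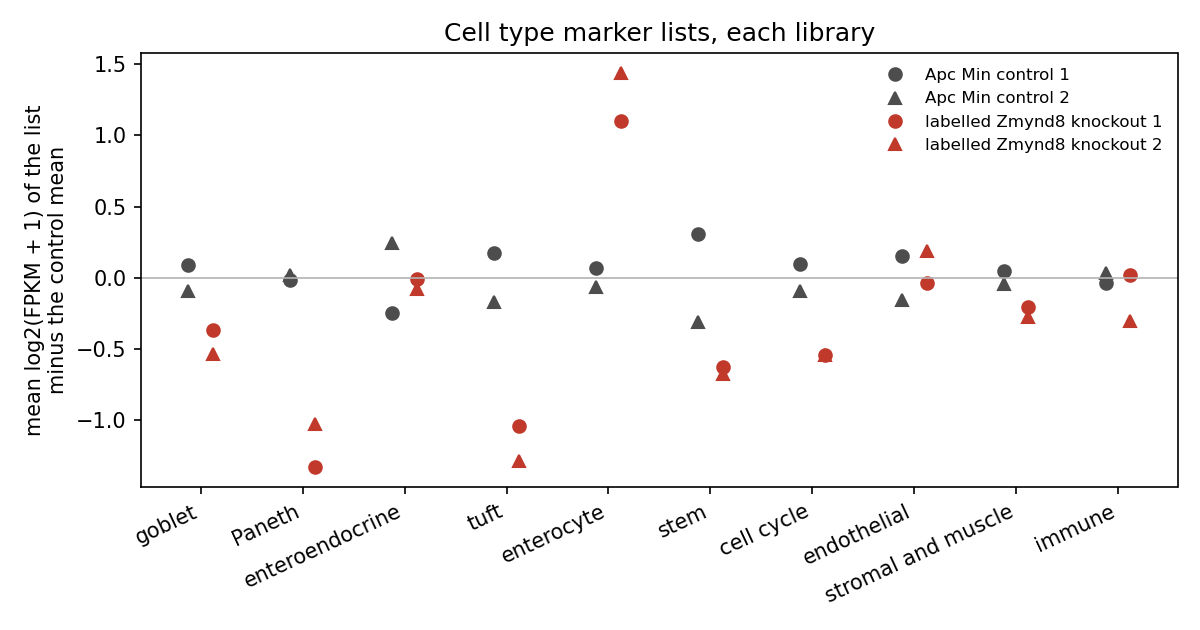
Mean log2(FPKM + 1) of each marker list in each library minus the mean of the 2 controls, with grey symbols for controls, red symbols for libraries labelled knockout, circles for replicate 1 and triangles for replicate 2. Paneth, tuft, goblet, stem, cell cycle and stromal and muscle lists lie lower in both libraries labelled knockout, the enterocyte list lies higher, and the enteroendocrine, endothelial and immune lists overlap between the groups.

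In the authors' deposited table each of the 10 genes has a q-value of 1, with log2 fold changes from -0.65 for Hes6 to 0.52 for Dll1.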

How the data were processed

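The authors deposited 1 value per gene and library, taken as FPKM since they resolve into whole reads per gene length and library total, with group means, a log2 fold change, p-values and q-values, per the file headers. The submitters' processing notes name HISAT2 and mm10, without roles. No source used here gives the counting tool, annotation, strand setting or the test behind those p-values. Of 13527 entries 168 exact repeats were dropped. The table holds 0 genes whose larger group mean is below 1 FPKM. A gene near this level can thus be listed through 1 group alone, as Neurog3, Jag2 and Aph1b are through the controls. Whole reads were recovered within 0.002 reads for 13359 genes (100% of values), as the smallest set that fits, so counts may be low by a common factor. All per-sample columns were used.

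The 12948 genes reaching 1 FPKM in 2 or more libraries went into limma 3.58.1 (R 4.3.3), fitted to log2(FPKM + 1) with trend and robust eBayes, genotype as the only term and Benjamini-Hochberg adjustment over all of them. The sources do not state how the pools were kept separate, and p-values reflect only the spread among these 4, which may be technical. The test was tried on simulated data. Alternatives were the pseudocount, filter, scaling, moderation, voom on recovered reads, a replicate block and each library left out. The members and lists were chosen with earlier results of these data known. Named genes are the 10 members, any gene of the Notch and secretory or endocrine factor lists, and cell type markers past the threshold or among the 3 highest in level of their list. Poisson intervals cover counting error only. Promoters are RefSeq sequences of GRCm38.p6.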

Additional observations from a re-analysis of the deposited data

How the results depend on the processing

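Of 113 member values under the alternatives 109 kept their direction. The filter, the moderation and the replicate block leave a fold change as it is, so values under these alternatives could not reverse. Reversed were Hes1 after median-ratio scaling (0.011) and, with a library left out, Hes1 (-0.56 to 0.25, positive without control replicate 1), Jag1 (-0.36 to 0.069, positive without control replicate 1) and Neurog3 (-0.40 to 0.12, positive without replicate 2 of the libraries labelled knockout); the cause was not tested. The lowest adjusted p of a member with all libraries kept was 0.0832, for Dll1 after quantile normalization. With a library left out, Hes6 ran from -0.85 without control replicate 2 to -0.35 without control replicate 1. Leaving out a library keeps 1 in its group, assumed to vary like the other group. Then 5 to 7 members were lower in every remaining pairing, beside 54.8 to 64.6% of all genes, and quantile normalization gave 3. Neurog3 was below the filter in 2 of these fits, and a mean of at least 5 FPKM kept only Hes6, Hes1, Atoh1, Dll1 and Dll4.

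The count of all genes called, 94 (77 higher, 17 lower), was 1 without a filter, 2 at a mean of at least 5 FPKM, 11 without trend and robust moderation, 150 by voom on recovered reads, 0 with a replicate block, and 0 to 616 with a library left out, 616 being without control replicate 2 and 0 without either library labelled knockout. The 17 lower calls, Mmp7, Itln1 and Sh2d6 among them, came to 0 without a filter, at a mean of at least 5 FPKM, without trend and robust moderation, with the replicate block and without either library labelled knockout. Median-ratio scaling gave 60 higher and 4 lower, quantile normalization 92 and 6. Same-numbered libraries shared only a number (correlation of their deviations 0.0452), and under the replicate block no member passed. The Notch pathway median of -0.15 was -0.028 after median-ratio scaling, -0.034 after quantile normalization and -0.24 to -0.072 with a library left out. With a library left out the Dll1 to Dll4 difference ran from 0.75 to 1.38 and the Atoh1 to Hes1 difference from -0.61 to 0.53. Depth limits Neurog3 most, at 37 to 105 reads a library.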
